A study of Mus musculus with 2 samples.

Results

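The aryl hydrocarbon receptor (AHR) pathway was examined in ureter explants in which WNT secretion had been blocked, around *Cyp1a1*, the gene with the largest increase in these arrays. The set held 8 genes, *Cyp1a1*, *Cyp1a2*, *Cyp1b1*, *Ahrr*, *Ahr*, *Arnt*, *Tiparp* and *Nqo1*, of 29924 gene names on the array, and all 13 of the 39429 probes that carried one of these names were read. *Cyp1a1* was chosen by its log2 ratio in this same comparison, and the other members were selected for their place in its pathway with the results known. Their values are therefore a description and carry no test. The comparison asked whether genes of a pathway other than WNT signaling differed between explants with and without the compound.

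Wild-type NMRI mouse ureters were dissected at E11.5, without determining the sex of the embryos, and kept for 18 h on transwell membranes in medium with 10 µM IWP-2 or, as control, with the solvent DMSO at 2:1000. IWP-2 inhibits Porcupine, the acyltransferase that WNT proteins need for their secretion. Each of 2 two-colour arrays (replicates 1 and 2) set 1 pool of treated explants against 1 pool of control explants, with the dyes exchanged between the arrays, so that every gene had 4 channel readings and 2 ratios. The explants were whole, pooled ureters that contained mesenchyme, epithelium and cells of vessels, blood and nerves, and the medium held no serum. With 2 arrays, a p-value refers only to the spread between pools. In limma the variance of each gene is also drawn towards a value shared by all genes. An exact permutation test on a single gene cannot reach 0.05.

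AHR is a basic helix-loop-helix PAS transcription factor that waits in the cytoplasm with HSP90 and the co-chaperone p23. After binding a ligand such as a dioxin, a polycyclic aromatic hydrocarbon or a tryptophan derivative, it moves to the nucleus, pairs with ARNT and binds DNA at the xenobiotic response element, whose core is GCGTG. *Cyp1a1*, *Cyp1a2* and *Cyp1b1* encode the cytochrome P450 enzymes of the response, *Ahrr* and *Tiparp* its feedback repressors, and *Nqo1* a quinone reductase that NFE2L2 also drives. *Cyp1a1* is widely used as a readout of AHR activity because its basal level is low in most tissues.

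The 250 bases before the start of *Cyp1a1*, *Cyp1a2*, *Cyp1b1* and *Ahrr* are printed because these genes are the classical AHR targets and differed from each other in the arrays. Capitals mark the core GCGTG or, where it lies on the other strand, CACGC. The sequences were those of RefSeq on GRCm38.p6, at chr9:57697363-57697612 on the plus strand for *Cyp1a1* and, on the minus strand, at chr9:57683656-57683905 for *Cyp1a2*, chr17:79715062-79715311 for *Cyp1b1* and chr13:74292332-74292581 for *Ahrr*.
Cyp1a1: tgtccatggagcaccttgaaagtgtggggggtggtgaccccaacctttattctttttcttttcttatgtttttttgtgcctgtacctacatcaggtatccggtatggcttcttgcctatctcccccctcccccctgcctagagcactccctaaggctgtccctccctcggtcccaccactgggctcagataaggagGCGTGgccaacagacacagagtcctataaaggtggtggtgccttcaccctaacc
Cyp1a2: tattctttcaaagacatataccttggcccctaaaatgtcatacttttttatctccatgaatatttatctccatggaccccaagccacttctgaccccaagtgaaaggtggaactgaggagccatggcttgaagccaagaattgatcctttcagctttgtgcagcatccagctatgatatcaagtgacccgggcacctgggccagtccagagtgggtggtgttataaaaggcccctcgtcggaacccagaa
Cyp1b1: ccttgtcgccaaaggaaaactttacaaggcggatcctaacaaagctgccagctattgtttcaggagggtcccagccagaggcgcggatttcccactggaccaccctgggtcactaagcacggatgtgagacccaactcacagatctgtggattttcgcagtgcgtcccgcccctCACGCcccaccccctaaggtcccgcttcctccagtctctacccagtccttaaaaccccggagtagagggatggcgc
Ahrr: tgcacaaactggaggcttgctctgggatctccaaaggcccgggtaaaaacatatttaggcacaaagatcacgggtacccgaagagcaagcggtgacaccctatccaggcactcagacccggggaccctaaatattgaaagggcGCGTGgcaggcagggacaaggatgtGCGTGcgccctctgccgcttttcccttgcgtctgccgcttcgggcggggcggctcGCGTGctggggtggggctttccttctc

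The *Cyp1a1* promoter held the core once, with its first letter 54 bases before the start, and *Cyp1b1* held it once, 76 bases before the start and on the opposite strand. *Ahrr* held it 3 times, the match nearest to the start lying 27 bases before it, and *Cyp1a2* had no match. Of the 7 members that matched a RefSeq entry, all but *Ahr*, 5 contained GCGTG on either strand, the other two being *Arnt* at 29 bases and *Tiparp* at 170 bases. Over all 32851 promoters of 27025 genes in that table, 28.2% contained it. The longer motif TNGCGTG, which contains the core, was present in *Ahrr* alone among the members, at 29 bases, and in 4.10% of all promoters. A match describes letters and not a bound site, and the best studied response elements of *Cyp1a1* lie further upstream than this window reaches.

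*Cyp1a1* transcripts were higher after IWP-2 on both arrays. The processed intensity, a background-corrected brightness in scanner units, was 162 in control pool 1 and 838 in treated pool 1, and 136 in control pool 2 against 737 in treated pool 2. These intensities were not scaled between the arrays here, so each treated pool is compared with the control pool of its own array. After loess normalisation, the ratio of treated over control was 4.84-fold on replicate 1 and 4.99-fold on replicate 2, a mean log2 ratio of 2.30 ± 0.03 (SD, n = 2 arrays), and by increase it ranked 1 of the 20119 genes tested. In bulk tissue, a change in the number of expressing cells cannot be told apart from a change in RNA per cell.

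The probe behind these values was read as 4 spots on each array, all of them well above background in both channels. The spots gave log2 ratios from 2.22 to 2.32 on replicate 1 and from 2.30 to 2.35 on replicate 2, so that no spot stood apart. Because treated RNA carried a different dye on each array, a dye effect would set the arrays apart, and the effect estimated for *Cyp1a1* was -0.02 on the log2 scale. The probe lay at chr9:57551535-57551594 of mm9 on the plus strand and was 60 bases long, of which 25% were G or C. Its first 30 bases are shown, next to those of the *Cyp1a2* probe at chr9:57528060-57528119 on the minus strand, to show how the probes of these paralogs differ.
Cyp1a1 probe: gataatttgctagtgtaacaaagaagattc
Cyp1a2 probe: cctggagcattttgctacttgtgacatggc

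The longest run of letters that the *Cyp1a1* probe shared with a probe of any other gene on the array was 13 bases. No annotation of mm9 was used here, so the exon that holds each probe is not given.

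**Figure D1:**
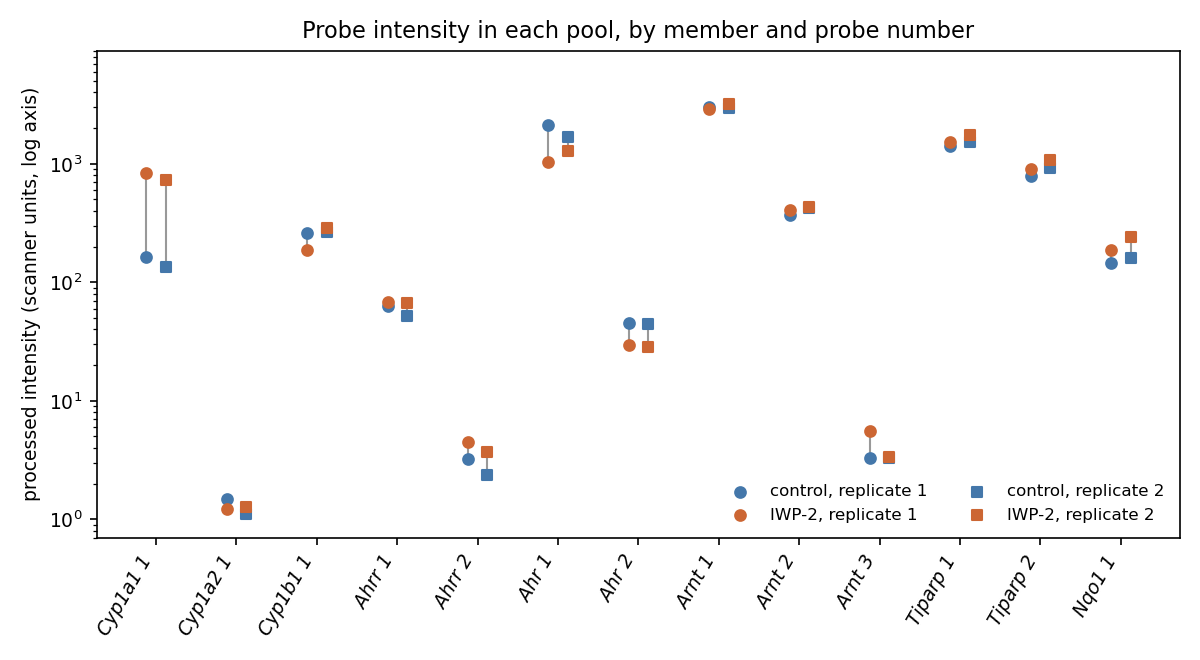
Processed intensity (scanner units, log axis) of all 13 member probes in the 4 pools, with probes numbered within a gene, control in blue and IWP-2 in orange, circles for replicate 1 and squares for replicate 2. The *Cyp1a1* probe went from 162 and 136 in the control pools to 838 and 737 in the treated pools, and brightness cannot be compared between different probes.

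Among the other CYP1 enzymes, *Cyp1a2*, the mainly hepatic paralog that lies next to *Cyp1a1* and is transcribed away from it, was not well above background in any of the 4 channels. Its processed intensity was 1.49 in control pool 1, 1.23 in treated pool 1, 1.10 in control pool 2 and 1.27 in treated pool 2. No fold is given, since none of its 4 spots was well above background on either array.

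*Cyp1b1*, which encodes an extrahepatic P450 that oxidises estrogens and aromatic hydrocarbons, went in opposite directions on the 2 arrays. Its processed intensity was 260.1 in control and 189 in treated pool 1, and 265 in control and 286 in treated pool 2. The treated pool was therefore below its control on replicate 1 and above it on replicate 2. The log2 ratios were -0.41 and 0.10, with a mean of -0.16 ± 0.37 (SD, n = 2 arrays). The spots kept to their array, from -0.49 to -0.37 on replicate 1 and from 0.05 to 0.16 on replicate 2, and with median centring in place of loess both arrays were below 0, at -0.32 and -0.04.

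The feedback repressors differed little between the pools. *Ahrr*, which competes with AHR for ARNT, had a processed intensity of 63.0 in control and 68.6 in treated pool 1, and of 51.6 in control and 67.0 in treated pool 2. Its mean log2 ratio was 0.21 ± 0.15 (SD, n = 2 arrays), above 0 on both arrays but with replicate 1 at only 0.10. A further *Ahrr* probe was near background, with 1 of 4 spots well above it in each channel.

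*Tiparp*, an ADP-ribosyltransferase that modifies AHR and promotes its loss, was read by a pair of probes. The brighter gave 1400.1 in control and 1533 in treated pool 1, and 1530.1 in control and 1748 in treated pool 2. Each treated pool was above its own control by only a small step, the log2 ratios being 0.12 and 0.20. The other probe gave a mean of 0.23 ± 0.01 against 0.16 ± 0.06 for the brighter (SD, n = 2 arrays).

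The receptor itself was lower in the treated pools. The brighter *Ahr* probe, at chr12:36182724-36182783 of mm9, had a processed intensity of 2108 in control and 1037 in treated pool 1, and of 1696 in control and 1273 in treated pool 2. Each treated pool was below its own control, but the log2 ratios of -1.03 and -0.41 differed by more than the spread of the spots. The spots reached from -1.17 to -0.96 on replicate 1 and from -0.45 to -0.33 on replicate 2. The mean was -0.72 ± 0.44 (SD, n = 2 arrays), and by decrease it ranked 201 of the 20119 genes.

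A dimmer *Ahr* probe at chr12:36188523-36188582 went from 45.1 to 29.8 on replicate 1 and from 44.4 to 28.3 on replicate 2 in processed intensity. Its log2 ratios of -0.41 and -0.47 were close to that of the brighter probe on replicate 2 but not on replicate 1. The direction was the same in all 4 readings of the gene, whereas the size on replicate 1 depended on the probe.

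*Arnt*, the obligate partner of AHR and of the hypoxia-inducible factors, was near its control level. Its brightest probe gave 3024 in control and 2907 in treated pool 1, and 2942 in control and 3215 in treated pool 2, with log2 ratios of -0.05 and 0.13. The arrays had opposite signs, and the sign on each array turned with median centring, to 0.13 and -0.10. Another probe had a mean log2 ratio of 0.06 ± 0.01 (SD, n = 2 arrays), and the remaining one was near background.

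*Nqo1*, the member with the second largest increase, had a processed intensity of 145 in control and 188 in treated pool 1, and of 160.3 in control and 241 in treated pool 2. Each treated pool was above its own control, with log2 ratios of 0.33 and 0.58 and a mean of 0.45 ± 0.17 (SD, n = 2 arrays). The spots ranged from 0.28 to 0.37 on replicate 1 and from 0.54 to 0.60 on replicate 2, so the arrays differed by more than their spots.

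**Figure D2:**
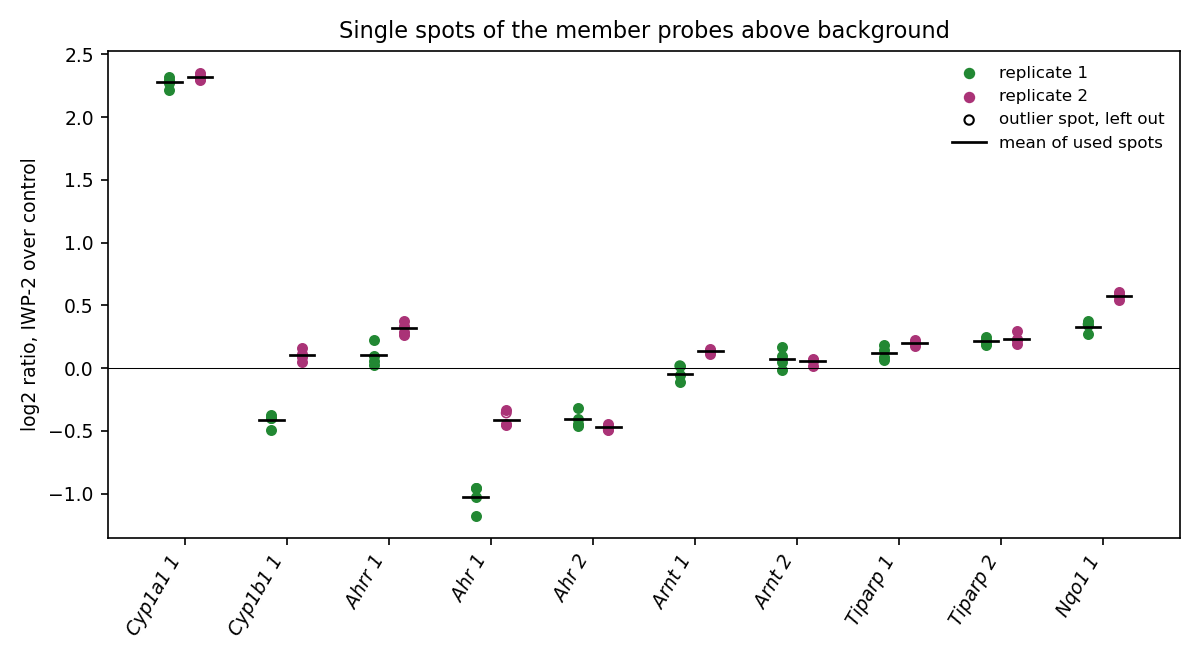
Log2 ratio of IWP-2 over control for each spot of the 10 member probes that were well above background, with replicate 1 in green and replicate 2 in purple. Filled points entered the mean (black bar) and open points are outlier spots that were left out. *Cyp1a1* spots lie between 2.22 and 2.35, and those of all other members between -1.17 and 0.60.

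Of the 8 members, 7 had a probe above background. On both arrays, 4 of these were higher after IWP-2 (*Cyp1a1*, *Ahrr*, *Tiparp* and *Nqo1*), 1 was lower (*Ahr*) and 2 had opposite signs (*Cyp1b1* and *Arnt*). Over all 20119 genes tested, 28.5% were higher, 27.5% lower and 44.0% had opposite signs, and *Cyp1a1* was chosen for its increase. In the limma fit over all 20119 genes, 355 genes (1.76%) passed an adjusted p of 0.05, of which 123 (0.611%) were higher and 232 (1.15%) lower after IWP-2. Of the members, 1, *Cyp1a1*, lay among those that were higher and 0 among those that were lower, a count that the choice of *Cyp1a1* fixed in advance. With the mean over all kept probes of a gene, *Ahr* (mean log2 ratio -0.58) was also among the lower ones, which were 278 of 20119 genes. In the deposited fold change table *Tiparp* (0.14) was also among the higher ones, which were 1038 of 20119 genes. That table is rounded to 1 decimal, and *Tiparp* had the same value on both arrays there, with an SD of 0. With separate channels and a dye term 0 genes passed. With cut-offs on the processed signals, 100 or more in whichever channel was brighter and a change of 2-fold or more on both arrays, 61 of 14549 genes bright enough passed (0.419%), and of the 6 members bright enough again *Cyp1a1* was the 1 that did. The smallest mean change that passed the limma threshold was 0.57 on the log2 scale.

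**Figure D3:**
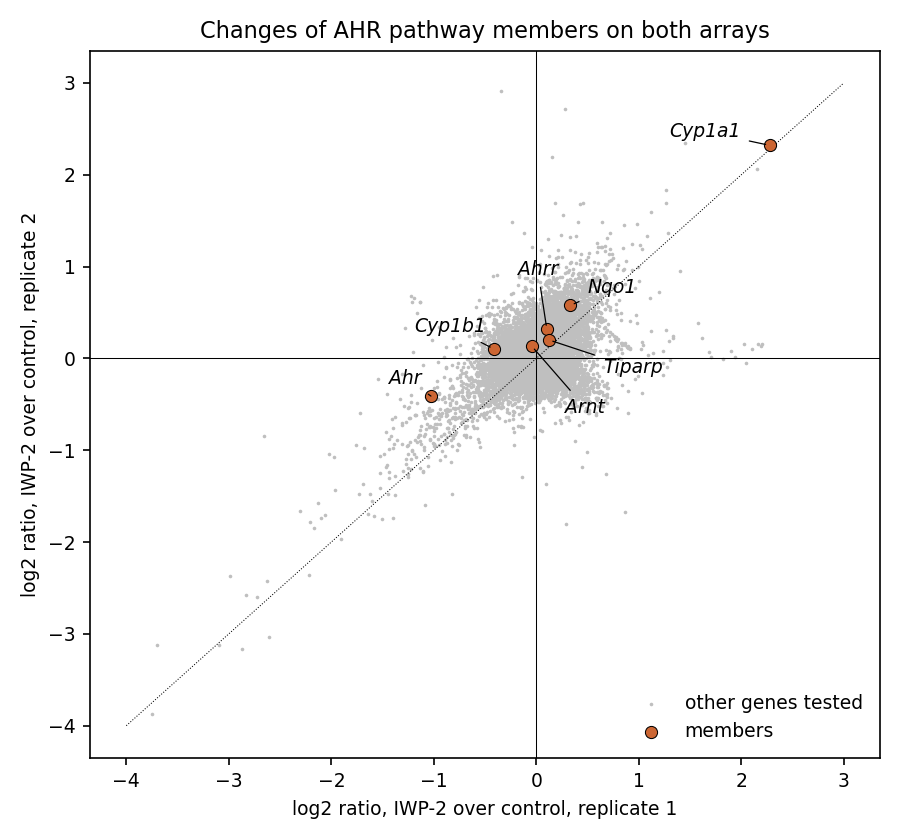
Log2 ratio of IWP-2 over control on replicate 1 (horizontal) and replicate 2 (vertical) for the 20119 genes tested (grey) and the 7 members above background (orange), with a dotted line of equal values. *Cyp1a1* lies on the line at 2.28 and 2.32 and *Ahr* at -1.03 and -0.41, while the other members lie inside the cloud of all genes.

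Other genes that AHR is known to induce did not pass the threshold. Of 18 such genes, 16 had a probe of that name and 11 were tested, while 5 were near background. None of the 11 passed in either direction (limma, adjusted p of 0.111 or more), with 3 higher and 0 lower at an unadjusted p of 0.05, which 1745 genes (8.67%) passed as higher and 954 (4.74%) as lower over the whole fit. These shares are the background for the unadjusted counts of every list. On both arrays, 6 were higher and 3 lower, and the median log2 ratio was 0.19, against 0.00 over all genes tested, of which 28.5% were higher and 27.5% lower on both arrays. The shares on both arrays are likewise the background for the counts of every list.

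The largest differences in that list were those of *Ugt1a6b*, *Scin* and *Xdh*. *Ugt1a6b*, a glucuronosyltransferase, had log2 ratios of 0.28 and 0.80 and a mean of 0.54 ± 0.37 (SD, n = 2 arrays; limma, adjusted p = 0.143). The actin-severing protein gene *Scin* had 0.35 and 0.56, with a mean of 0.45 ± 0.15 (adjusted p = 0.111). *Xdh*, encoding xanthine dehydrogenase, had 0.33 and 0.28, with a mean of 0.31 ± 0.04 (adjusted p = 0.232). The probe of *Ugt1a6b* may share transcripts with the other genes of the *Ugt1a* cluster, which use common exons.

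Genes induced by NFE2L2, the oxidative stress factor that shares *Nqo1* with AHR, did not pass either. All 12 were tested and 0 passed, with 3 higher and 0 lower at an unadjusted p of 0.05, and the median log2 ratio was 0.17, with 8 higher and 2 lower on both arrays. *Osgin1*, an inhibitor of cell growth, had a mean of 0.56 ± 0.19 (limma, adjusted p = 0.0706), the cystine transporter gene *Slc7a11* 0.48 ± 0.15 (adjusted p = 0.0949) and the glutathione synthesis gene *Gclm* 0.32 ± 0.21 (adjusted p = 0.293; SD, n = 2 arrays).

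The genes of the other xenobiotic receptors, PXR and CAR, were measured in 7 of 10 cases, the receptor gene *Nr1i2* and the targets *Cyp2b10* and *Abcc2* being near background. None of the 7 passed, with 1 higher and 1 lower at an unadjusted p of 0.05, and the median log2 ratio was 0.07. The sulfotransferase gene *Sult1a1* had a mean of -0.35 ± 0.03 (limma, adjusted p = 0.171), the CAR gene *Nr1i3* 0.33 ± 0.18 (adjusted p = 0.244) and the efflux pump gene *Abcg2* 0.24 ± 0.17 (adjusted p = 0.416; SD, n = 2 arrays).

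Cytochrome P450 genes outside the CYP1 family had values on both sides of 0. Of 95 on the array, which include the P450 genes of the AHR, PXR and CAR lists, 39 were above background and had a median log2 ratio of -0.02, from -1.02 to 0.46. None passed as higher, with 2 higher and 1 lower at an unadjusted p of 0.05, against the 8.67% and 4.74% of all genes. *Cyp27a1*, the mitochondrial sterol 27-hydroxylase, fell by 0.94 on replicate 1 and by 1.11 on replicate 2. Its mean was -1.02 ± 0.12 (SD, n = 2 arrays; limma, adjusted p = 0.0107), a call that was lost with median centring and with separate channels. The genes next to the pair *Cyp1a1* and *Cyp1a2* that could be tested were *Lman1l* with a mean log2 ratio of -0.22 ± 0.64 and *Csk* with 0.07 ± 0.07 on the side of *Cyp1a2*, and *Edc3* with 0.05 ± 0.10 and *Clk3* with -0.02 ± 0.05 on the side of *Cyp1a1* (SD, n = 2 arrays; limma, adjusted p of 0.813, 0.916, 0.952 and 0.988).

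**Figure D4:**
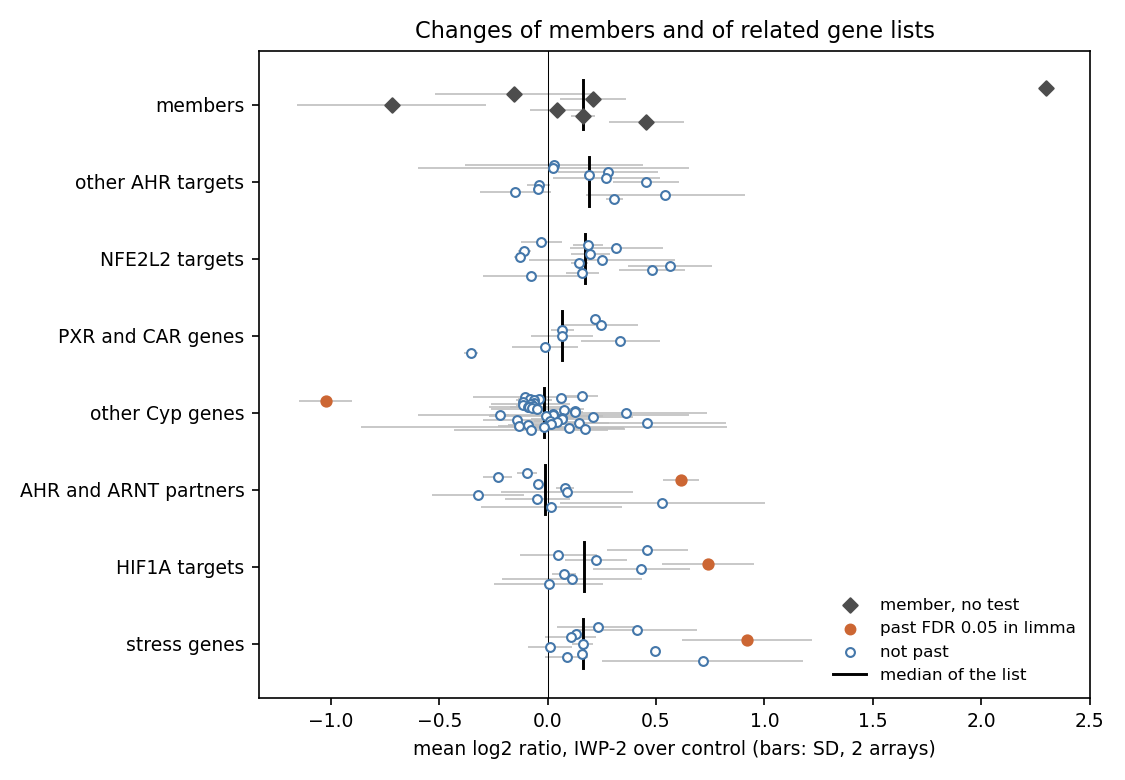
Mean log2 ratio of IWP-2 over control (horizontal axis; bars are the SD of 2 arrays) for the 7 members (grey diamonds, no test) and for 7 lists of related genes, with genes past an adjusted p of 0.05 in limma filled in orange and the list median as a black bar. *Cyp1a1* at 2.30 lies beyond all genes of the lists, whose highest value is that of *Chac1* at 0.92.

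Of 11 genes for proteins that hold AHR or pair with ARNT, 10 were tested, with a median log2 ratio of -0.01 and a range from -0.32 to 0.61. At an unadjusted p of 0.05, 2 were higher and 1 lower, and 1 passed after adjustment. The chaperone genes *Hsp90aa1* and *Hsp90ab1* had mean log2 ratios of 0.08 and 0.09, the p23 gene *Ptges3* -0.05 and *Arnt2* -0.23, none past the threshold (limma, adjusted p from 0.395 to 0.959). The PAS factor genes *Sim1* and *Npas3* had means of 0.53 ± 0.47 and -0.32 ± 0.21 (SD, n = 2 arrays; limma, adjusted p = 0.217 and 0.287). *Epas1*, encoding the hypoxia-inducible factor HIF2A, which also pairs with ARNT and is abundant in endothelium, rose by 0.56 and 0.67. Its mean was 0.61 ± 0.08 (SD, n = 2 arrays; limma, adjusted p = 0.0418). The call was lost without background correction, with processed intensities, with median centring and without the filter on dim probes. It was also lost with the mean over probes, with separate channels and in the deposited fold change table.

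Targets of HIF1A, the ARNT partner of the hypoxia response, had a median log2 ratio of 0.17 over 8 genes. At an unadjusted p of 0.05, 3 were higher and 0 lower, against 8.67% and 4.74% of all genes, and 1 passed after adjustment. This was *Egln3*, an oxygen-sensing prolyl hydroxylase, at 0.59 and 0.89 with a mean of 0.74 ± 0.21 (SD, n = 2 arrays; limma, adjusted p = 0.0361). Of 11 stress genes tested, 10 were higher on both arrays, against 28.5% of all genes, with a median of 0.16. At an unadjusted p of 0.05, 4 were higher and 0 lower, against 8.67% and 4.74% of all genes. After adjustment 1 passed, the glutathione-degrading enzyme gene *Chac1* with a mean of 0.92 ± 0.30 (SD, n = 2 arrays; limma, adjusted p = 0.0273). Both calls were lost with processed intensities, with median centring, without the filter on dim probes and with separate channels. With median centring, 6 of the stress genes were higher on both arrays. The *Egln3* call was also lost without background correction and in the deposited fold change table.

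By the distance between log2 ratios over the 2 arrays, the genes most like *Cyp1a1* were *Marco* at 0.286, *Cxcl3* at 0.824, *Ms4a7* at 1.12, *Tcerg1l* at 1.19 and *Gpr84* at 1.37. *Marco*, the next largest mean increase, had log2 ratios of 2.16 and 2.06 against 2.28 and 2.32 for *Cyp1a1*. *Cxcl3* matched *Cyp1a1* on replicate 2, at 2.34, but had 1.45 on replicate 1, and the remaining ones were below *Cyp1a1* on both arrays. The cell type marker lists described below held none of these genes, and the cells that express them were not determined.

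The explants carried the markers of a ureter, and the levels of several marker lists differed between the pools. Of 10 markers of mesenchyme, every one was above background, and the transcription factor genes *Tbx18* and *Tcf21* fell, with mean log2 ratios of -1.03 and -0.77 (limma, adjusted p = 0.0126 and 0.0247). *Pdgfrb* and *Vim* had mean log2 ratios of 0.50 and 0.31 (adjusted p = 0.0891 and 0.234), and at an unadjusted p of 0.05, 2 of the list were higher and 3 lower. The median over these 10 was -0.13, with 3 higher and 6 lower on both arrays, and their summed processed intensity was 114210 and 93582 in the control pools and 105835 and 100927 in the treated pools. The 10 markers of epithelium had a median of 0.18 with 0 past the threshold and 4 higher at an unadjusted p of 0.05, against 8.67% of all genes, and sums of 54601 and 52617 in control against 57451 and 62038 in treated pools.

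Markers of endothelium were higher on both arrays in 10 of 10 cases, against 28.5% of all genes tested. Against 8.67% of all genes, 9 of these markers were higher at an unadjusted p of 0.05, and 0 were lower. Their median log2 ratio was 0.46, *Kdr* (0.74, adjusted p = 0.0359) and *Cldn5* (0.65, adjusted p = 0.0347) passed in limma, and the sums were 18081 and 13467 in the control pools against 24990.1 and 20912 in the treated pools. Markers of macrophages were likewise higher in 10 of 10 cases, with a median of 0.42, *Adgre1* past the threshold (0.92, adjusted p = 0.0409) and sums of 14808 and 11935 against 18555 and 17023. All 10 macrophage markers were also higher at an unadjusted p of 0.05, against 8.67% of all genes. The part of these shifts in the *Cyp1a1* value was not tested, and the cells that express *Cyp1a1* were not identified.

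Nerve and red cell markers had medians of 0.36 and 0.49 with 0 past the threshold and 5 of 8 and 5 of 6 higher at an unadjusted p of 0.05, against 8.67% of all genes. Their summed intensities were 21213 and 22064 in control against 28835 and 26418 in treated pools for nerve, and 138072 and 70640.4 against 154330.0 and 111644 for red cells. Hepatocyte markers, included because liver is the main site of *Cyp1a2* expression, were above background in 6 of 8 cases, *Apoa1* and *Fgb* not, and had a median of 0.11 with 0 past the threshold and 1 higher at an unadjusted p of 0.05. Their sums were 5124 and 3098 in the control pools and 6619 and 2885 in the treated pools. Most of each sum was the 1 gene *Apoa2*, at 4937 and 2925 in control and 6486 and 2403 in treated pools. The fetal liver gene *Afp* differed between the arrays, at 0.28 and 2.71. No list had a summed level of 0.

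**Figure D5:**
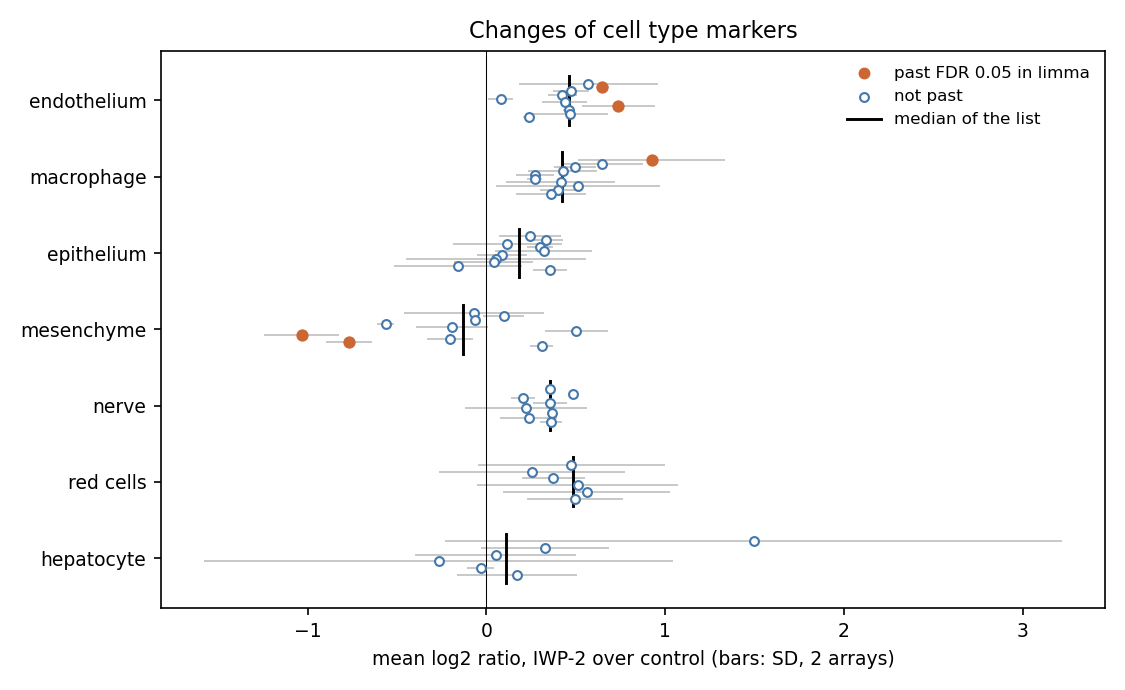
Mean log2 ratio of IWP-2 over control (horizontal axis; bars are the SD of 2 arrays) for the markers of 7 cell types, with genes past an adjusted p of 0.05 in limma filled in orange and the median of each list as a black bar. All 10 endothelial and all 10 macrophage markers lie above 0, with medians of 0.46 and 0.42.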

How the data were processed

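Total RNA of 4 pools of explants was hybridised to 2 two-colour Agilent arrays with the dyes exchanged. The authors deposited scanner files with spot intensity and local background intensity per channel, a processed intensity (background-subtracted, detrended and dye-normalised), and marks for spots that were well above background or outliers. The software was Agilent Feature Extraction, version 12.2.0.7 per the file headers and 10.7.3.1 in the submitters' processing notes. A deposited table of signed fold changes, rounded to 1 decimal and treated as a score because its making is not given in the sources used here, served as an alternative. Its column medians were 1 and 1, its log2 values correlated with the scanner ratios at 0.924 and 0.959, and its direction was that of treated over control.

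Background was corrected with normexp (offset 50), each array was loess-normalised in limma 3.58.1 (R 4.3.3), outlier spots (4.51% and 3.30%) and controls were left out, and the spots of a probe were averaged. No spot was saturated, and 68.6% to 70.7% of spots per channel were well above background. A probe was kept where a share of over 0.5 of its spots was well above background on both arrays in the treated, or on both in the control, channel, and the brightest kept probe stood for its gene. Log2 ratios of 20119 genes were fitted with lmFit and eBayes with 1 residual degree of freedom and Benjamini-Hochberg adjustment. Across genes, the arrays correlated at r = 0.465, the median SD between them was 0.11, and 0 genes passed as a dye effect (438 at an unadjusted p of 0.05). The number of arrays limits the precision. The scripts were tested on simulated data.

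The members and gene lists were chosen with earlier results of these data known. Named were all members, the genes of each list past the threshold or otherwise the 3 with the largest change, 3 neighbours on either side of *Cyp1a1* and *Cyp1a2* in the RefSeq gene order, and the 5 genes nearest to *Cyp1a1*. Other genes were named after their values were seen. Some list genes are counted but not reported here by name. Alternatives were no background correction, processed intensities, median centring, no filter, the mean over probes, outliers kept, other variance priors, an FDR of 0.01, single arrays, separate channels and the score table. The intensity and fold cut-offs were added after seeing the data.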

Additional observations from a re-analysis of the deposited data

How the results depend on the processing

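The log2 ratio of *Cyp1a1*, 2.30, was 2.33 without background correction, 2.40 with processed intensities and 2.41 in the score table, and 2.28 to 2.32 on single arrays. In 11 settings it ranged from 2.27 to 2.41, but several of these settings could not move it. *Cyp1a1* had a single probe without outlier spots, so the filter, the mean over probes and kept outliers left it at 2.30. The separate-channel fits used the same ratios and also gave 2.30. *Ahr* ranged from -1.03 to -0.41 and stayed below 0. *Nqo1*, *Tiparp* and *Ahrr* stayed above 0, at 0.33 to 0.58, 0.12 to 0.20 and 0.10 to 0.32. *Cyp1b1* and *Arnt* turned sign with the array left out, from -0.41 to 0.10 and from -0.05 to 0.13. The ends of each of these ranges were the values of the single arrays, so the ranges give the spread between arrays. For these members too, the filter and the separate-channel fits left the values unchanged. The count of the other members higher on both arrays was 3, and 4 with the mean over probes, where *Arnt* joined.

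Counts over all genes moved more. Higher calls (123) were 74 without background correction, 75 with processed intensities, 7 with median centring, 21 without the filter, 224 with the mean over probes, 224 with a trended prior, 226 with a trended and robust prior, 9 at an FDR of 0.01 and 1038 in the score table. Lower calls (232) were 36 with median centring, 98 without the filter, 55 at an FDR of 0.01 and 1322 in the score table. The causes were not tested, and the score table is rounded to 1 decimal.

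Among AHR targets 0 passed, except 1, lower, in the score table. NFE2L2 targets had 1 higher with the mean over probes, 1 higher with the trended and robust prior, and 2 higher and 1 lower in the score table. Of the other P450 genes, 0 passed with median centring and 5 in the score table, 3 as higher and 2 as lower. Of the PXR and CAR genes, 2 passed in the score table, 1 as higher and 1 as lower. The single call among ARNT and AHR partners was a higher one. It was lost without background correction, with processed intensities, with median centring, without the filter and with the mean over probes. In the score table, 0 partners passed as higher and 2 as lower. The single HIF1A target was 0 without background correction, with processed intensities, with median centring, without the filter and in the score table. The single stress gene was 0 with processed intensities, with median centring and without the filter, 2 with the mean over probes, 2 with the trended and robust prior and 3 in the score table.

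The ratio within an array already pairs a treated with a control pool. With separate channels and no replicate block, 2 genes were higher and 24 lower, and with a dye term added 0 and 0, with 0 of the other P450 genes, 0 partners, 0 HIF1A targets and 0 stress genes in either fit. Single arrays have no residual degrees of freedom, so no counts of calls were made without a replicate.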
